A study of Mus musculus with 34 samples.

Results

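Spinal cord from trkB.T1 knockout (KO) mice taken 7 days after spinal cord injury was compared with spinal cord from sham-operated KO mice. The comparison uses 8 of the 34 expression arrays of the study, namely the 4 arrays titled KO at day 7 and the 4 arrays titled KO at day 0, which are the sham group. Both groups are labelled as lacking trkB.T1, the truncated form of trkB without the kinase domain (1 sham array has an Ntrk2 signal against that label), and trkB, encoded by Ntrk2, is the receptor for brain-derived neurotrophic factor. The injured KO group had a spinal cord injury, and the sham KO group had the operation with the cord itself spared. The other groups drawn on are KO cord 1 day (4 arrays) and 3 days (5 arrays) after injury, wild-type (WT) cord at day 7 (4 arrays) and WT sham cord (4 arrays). The labels used here give no strain, age, sex, injury level or number of pooled animals, and do not tell whether arrays come from different animals, so p-values measure the spread between samples, which may be technical. Of the probe sets of a gene, the brightest on average across the 34 arrays stood for it, and 11993 of 18193 genes exceeded log2 4 on at least 4 arrays and were tested.

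After a spinal cord injury, resident microglia and blood-borne macrophages clear cell debris and myelin, which is rich in cholesterol. Phagocytes that take up much lipid raise genes for lysosomal breakdown and for cholesterol export by the nuclear receptor LXR, while cells full of sterol hold back the SREBP2 programme of cholesterol synthesis. Astrocytes become reactive, fibroblasts and glia lay down matrix, and glia and macrophages divide in the days after the lesion.

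Levels are log2 signals, and ± is the SD of a group's level or the standard error of a difference. Signals below log2 4 are called not well above background. Where arrays of the lower group lie under it, the fold is given as a bound, with those arrays set to 4, and the log2 difference uses the measured values. Genes under log2 4 in sham could be tested through injured arrays alone, and such genes had little room to fall. Adjusted p-values are from limma over all tested genes, with a threshold of 0.05. Across the 11993 tested genes, the 4 KO day 7 arrays correlated with each other at 0.996 and the 4 KO sham arrays at 0.988 to 0.994. KO day 7 arrays correlated with KO sham arrays at 0.906 to 0.935. These are correlations across genes, which are not independent replicates.

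The targeted gene and a few cell type markers bear on how far the sham arrays can be relied on. Ntrk2 probe set A had 3.96, 4.24, 3.98 and 4.53 on the KO day 7 arrays, and 4.62, 9.46, 3.31 and 4.91 on KO sham arrays 1 to 4. The library labelled KO sham replicate 2 thus had a high level where the other 7 KO arrays were low, so its label and its Ntrk2 signal disagree. The main Ntrk2 probe set had 10.68, 10.65, 10.61 and 10.61 at KO day 7 and 11.36, 11.37, 11.22 and 11.27 in KO sham, a difference of −0.67 ± 0.21 (limma adjusted p = 0.00876), and replicate 2 did not stand apart on it. The skeletal muscle list averaged 4.41 to 5.22 on the KO day 7 arrays, against 6.73, 7.99, 8.19 and 9.39 on the KO sham arrays, so muscle genes were higher and more variable on the sham arrays. The meningeal list averaged 9.22 to 9.73 at KO day 7, against 8.65, 6.31, 8.55 and 8.28 on KO sham arrays 1 to 4. The part of the muscle and meningeal signal in other genes was not tested beyond the fits without replicate 2 and with the muscle mean as a covariate. In bulk tissue, fewer cells of a type and less RNA per cell cannot be told apart.

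**Figure D1:**
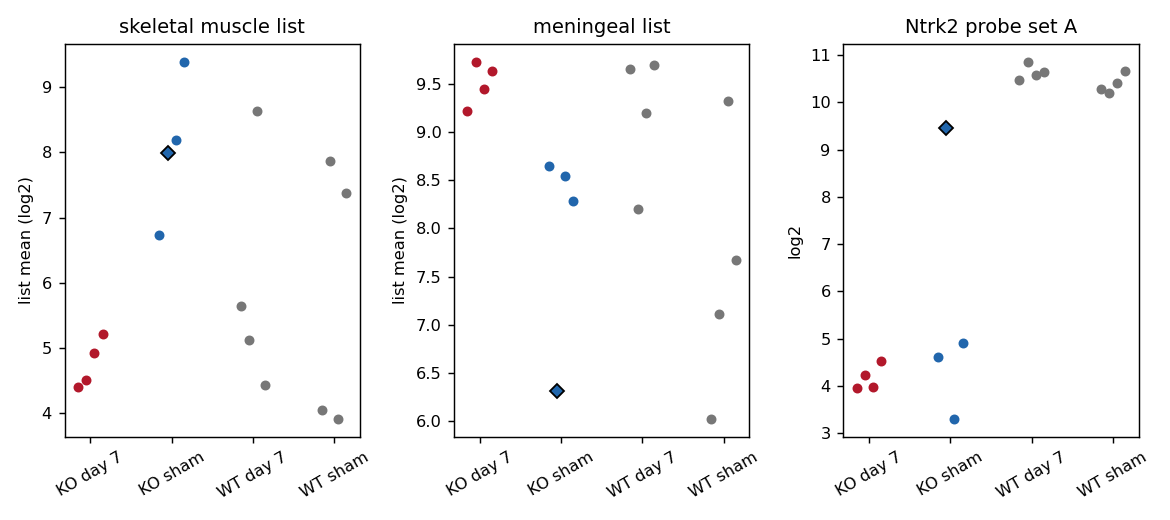
Mean log2 level of the skeletal muscle and meningeal lists, and the log2 level of Ntrk2 probe set A, on each array of the KO day 7, KO sham, WT day 7 and WT sham groups; each point is 1 array and KO sham replicate 2 is the diamond. The diamond stands at 6.31 in the meningeal panel and at 9.46 in the Ntrk2 panel, apart from the other KO sham arrays in both.

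At day 7, 2824 genes (23.5% of those tested) were higher in KO injured than in KO sham cord, and 3716 genes (31.0%) were lower. Changes of at least 2-fold were mostly rises, with 1165 genes higher and 247 lower. Without KO sham replicate 2, 2601 genes (21.7%) were higher and 3250 (27.1%) lower, and 5783 of the 6540 genes (54.5% of those tested) that passed in either direction with all arrays (88.4%) passed again in the same direction. The median log2 difference over all tested genes was −0.06. Aligning the arrays on their medians instead moved that median to −0.18 and gave 2265 higher and 5063 lower genes, so rises made up 30.9% of the calls against 43.2% as deposited. Repeated quantile normalisation gave a median of −0.08, with 2754 higher and 3859 lower genes, and rises made up 41.6% of the calls. Median alignment lowered every difference by the same amount, so it made falls larger and rises smaller. Small differences in either direction depend more on the scaling than the large rises described next.

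**Figure D2:**
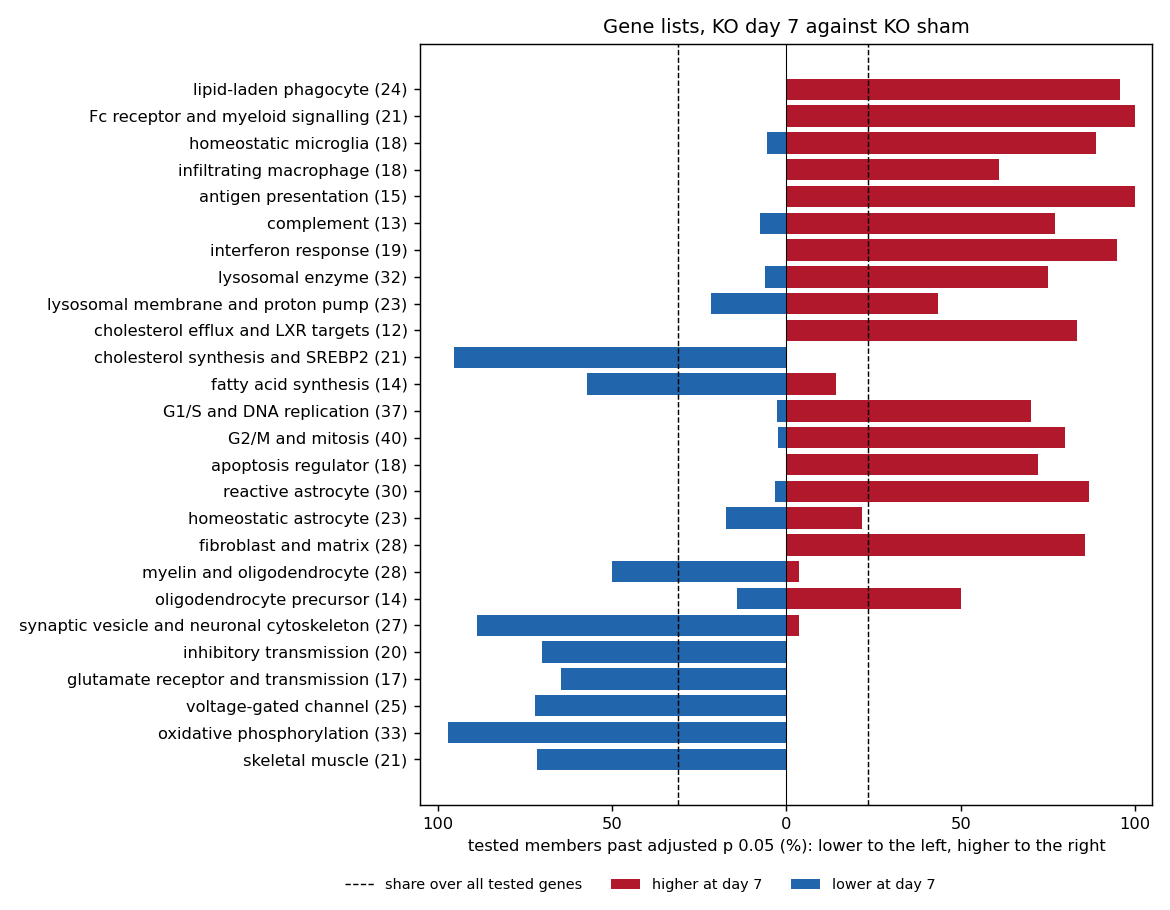
Percent of the tested members of each gene list (number in brackets) that were higher, to the right, or lower, to the left, at KO day 7 than in KO sham by limma (adjusted p under 0.05), with the shares over all tested genes (23.5% and 31.0%) as dashed lines. Myeloid, lysosomal enzyme, matrix and reactive astrocyte lists lie on the higher side, and cholesterol synthesis (20 of 21 lower) and oxidative phosphorylation (32 of 33 lower) on the lower side.

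Genes of lipid-laden phagocytes had the greatest rises. Of 24 tested members of that list, 23 rose and none fell, with a median difference of 5.40 on the log2 scale, against −0.06 for all tested genes. Gpnmb, a glycoprotein of phagocytes loaded with lipid, had 13.58, 13.51, 13.08 and 13.39 at KO day 7, against 4.17, 2.77, 3.11 and 3.11 in KO sham. Every injured array was far above every sham array, and 3 of the 4 sham arrays were under log2 4. The difference was 10.10 ± 0.51 (limma adjusted p = 5.99e-16), at least 651-fold, the largest rise among the tested genes, but it was 2.10 on a second Gpnmb probe set (adjusted p = 0.000176). Lgals3, which encodes the lectin galectin-3, had 12.91, 12.81, 12.82 and 12.78 at KO day 7, against 5.86, 4.58, 6.13 and 5.23 in KO sham. All 8 arrays were above background for Lgals3, and the rise was 166-fold (difference 7.38 ± 0.31, adjusted p = 1.37e-17). Cd68, a lysosomal glycoprotein of macrophages, reached 11.39 ± 0.11 at KO day 7, against 4.45 ± 0.51 in KO sham (SD, n = 4 each), a difference of 6.94 ± 0.29. Clec7a, the receptor of fungal glucans dectin-1, had 11.79, 11.71, 11.60 and 11.60 at KO day 7, against 4.71, 3.37, 4.88 and 4.36 in KO sham, at least 146-fold.

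Scavenger receptors and secreted proteins on the same list rose as well. Cd36, which takes up oxidised lipoprotein, had 10.55, 10.14, 10.33 and 10.42 at KO day 7, against 3.05, 2.56, 2.95 and 5.49 in KO sham, so that 1 sham array was above background. Msr1, the class A scavenger receptor, had 9.27, 9.07, 9.04 and 9.06 at KO day 7, while all 4 KO sham arrays were at or under 3.39, a rise of at least 34.5-fold. Cd5l, a macrophage protein that binds lipids, had 9.60, 9.58, 8.84 and 8.78 at KO day 7 and 2.28, 2.25, 2.25 and 2.20 in KO sham. None of the sham levels was above background, and the rise was at least 36.8-fold. Trem2, the lipid-sensing receptor of microglia, was chosen after its values were seen: it had 10.39, 10.30, 10.21 and 10.33 at KO day 7, against 4.91, 5.04, 5.10 and 4.84 in KO sham. Its signalling partner Tyrobp had 13.60, 13.52, 13.44 and 13.53 at KO day 7, against 9.07, 8.63, 9.16 and 9.01 in KO sham. Both genes of this receptor complex rose with no overlap between groups, Trem2 by 5.33 ± 0.23 (adjusted p = 3.34e-17) and Tyrobp by 4.56 ± 0.17 (adjusted p = 1.14e-18). The member of the list that did not pass was Nceh1, a cholesteryl ester hydrolase, with a difference of 0.12 (adjusted p = 0.296).

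**Figure D3:**
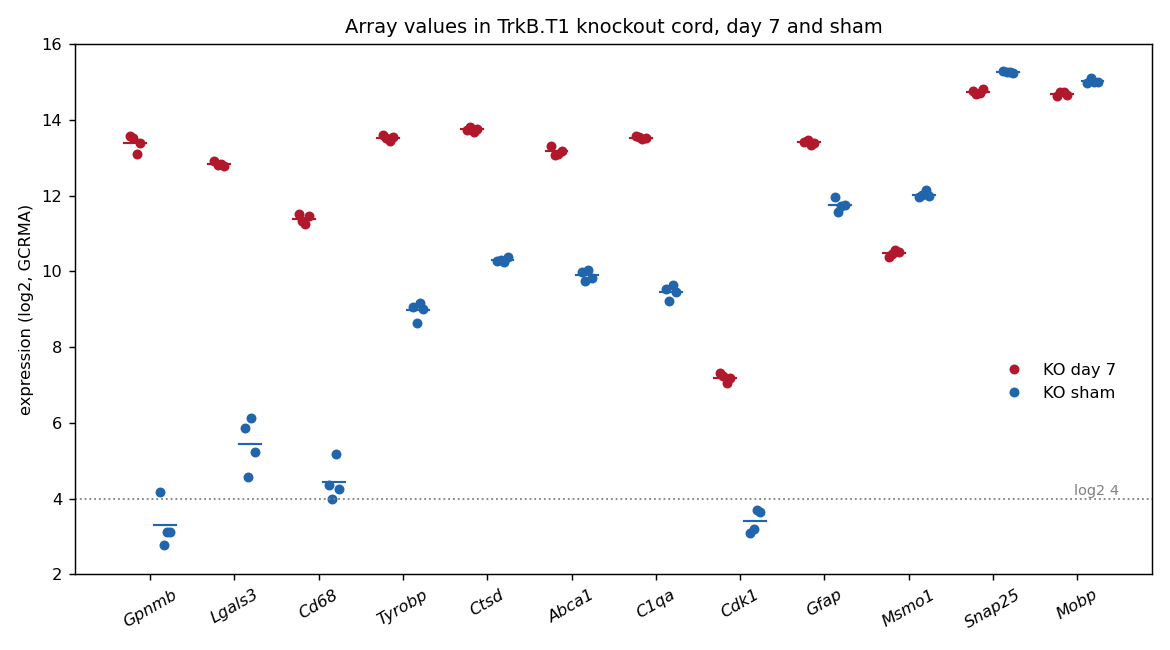
Log2 level of 12 genes on the KO day 7 and KO sham arrays; each point is 1 array, horizontal bars are group means, and the dotted line at log2 4 is the background level. Gpnmb spans 13.08 to 13.58 at KO day 7 against 2.77 to 4.17 in KO sham, while Mobp spans 14.63 to 14.73 against 14.98 to 15.10.

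Sterol genes moved in opposite directions by role. In the list of cholesterol efflux and LXR target genes, 10 of 12 tested members rose and none fell, with a median of 0.98. Abca1, the transporter that loads cholesterol onto lipoproteins, had 13.32, 13.06, 13.10 and 13.17 at KO day 7, against 9.97, 9.75, 10.04 and 9.81 in KO sham. The groups lay more than 3 log2 units apart, a 9.65-fold rise (difference 3.27 ± 0.15, adjusted p = 6.12e-17). Apoe, the main lipoprotein of the nervous system, had 13.98, 13.93, 13.89 and 13.88 at KO day 7, against 11.97, 11.71, 11.85 and 11.83 in KO sham, a 4.24-fold rise. Mylip, an LXR-induced ubiquitin ligase, had 9.97, 9.73, 9.69 and 9.83 at KO day 7, against 7.58, 7.58, 7.62 and 7.61 in KO sham. It rose 4.62-fold, with injured arrays above all sham arrays. Ch25h, the cholesterol hydroxylase that makes an LXR ligand and is a member of the phagocyte list, averaged 9.33 ± 0.25 at KO day 7, against 2.62 ± 0.33 in KO sham, at least 40.3-fold. Apoc1, a small apolipoprotein, rose by 3.77 ± 0.62 and averaged 9.20 ± 0.28 at KO day 7 against 5.43 ± 0.39 in KO sham.

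Of 21 tested genes of cholesterol synthesis and SREBP2, 20 fell and none rose, with a median of −1.27. The list mean was 8.49 to 8.66 on the KO day 7 arrays, against 9.75 to 9.88 on the KO sham arrays. Msmo1, a sterol demethylation enzyme, had 10.37, 10.46, 10.57 and 10.51 at KO day 7, against 11.97 to 12.14 on the 4 KO sham arrays. The groups were separated by over 1 log2 unit, with a 2.92-fold fall (difference −1.55 ± 0.10, adjusted p = 8.06e-14), although a second Msmo1 probe set of lower signal differed by −0.40 and did not pass (adjusted p = 0.114). Sqle, squalene epoxidase, had 9.17, 9.16, 9.20 and 9.21 at KO day 7, against 10.49, 10.77, 10.71 and 10.61 in KO sham, a 2.76-fold fall. Insig1, which retains the SREBP complex in the endoplasmic reticulum and is itself an SREBP target, had 10.42, 10.35, 10.36 and 10.44 at KO day 7, against 11.81, 11.91, 11.82 and 11.78 in KO sham. Its 4 injured arrays were within 0.1 log2 units of each other, and the fall was 2.71-fold. Stard4, which carries sterol between membranes, fell 3.40-fold, to 7.44 ± 0.09 at KO day 7 against 9.20 ± 0.07 in KO sham. Mvd, mevalonate diphosphate decarboxylase, was chosen after its values were seen, and it fell by 1.89 on the log2 scale (adjusted p = 2.07e-10), with 5.19, 5.51, 5.30 and 5.97 at KO day 7 against 7.20, 7.67, 7.12 and 7.54 in KO sham. The member that did not pass was Ggps1, which makes geranylgeranyl diphosphate, at −0.29 (adjusted p = 0.0849).

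Hmgcs1, which makes the HMG-CoA that enters sterol synthesis, had 13.14, 13.01, 13.11 and 13.19 at KO day 7, against 14.14, 14.29, 14.34 and 14.24 in KO sham. It fell 2.20-fold (difference −1.14 ± 0.12, adjusted p = 9.2e-09), again with no overlap. Its promoter is shown because it was the single one of 17 promoters of this list that held the sterol regulatory element searched for, TCACNCCAC, on either strand of the window from 250 bases before to 50 after the start (5.88%, against 1.44% of 27025 promoters). The stretch is chr13:119690174-119690262 of GRCm38.p6 on the plus strand, taken from RefSeq, and ends 89 bases before the start, with the element in capitals.
Hmgcs1: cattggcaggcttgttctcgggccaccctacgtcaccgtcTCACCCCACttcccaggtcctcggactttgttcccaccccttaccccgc
A match is a description of letters and was not tested as a binding site.

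The fatty acid synthesis list was mixed, with 2 of 14 tested members higher, 8 lower and a median of −0.25, and 1 was higher with any 1 of the 8 arrays left out. Tecr, which reduces enoyl-CoA in chain elongation, had 11.05, 11.07, 11.10 and 11.07 at KO day 7, against 12.06, 12.24, 12.22 and 12.20 in KO sham, a 2.16-fold fall. Acss2, which makes acetyl-CoA from acetate, fell 2.21-fold, to 9.46 ± 0.05 at KO day 7 against 10.61 ± 0.11 in KO sham. Scd1, the stearoyl-CoA desaturase, differed by −0.57 ± 0.09 (adjusted p = 8.5e-06). Srebf1, an LXR target that drives fatty acid genes, rose instead, with 9.96, 9.84, 9.80 and 9.92 at KO day 7 against 9.17, 8.98, 9.03 and 9.06 in KO sham.

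**Figure D4:**
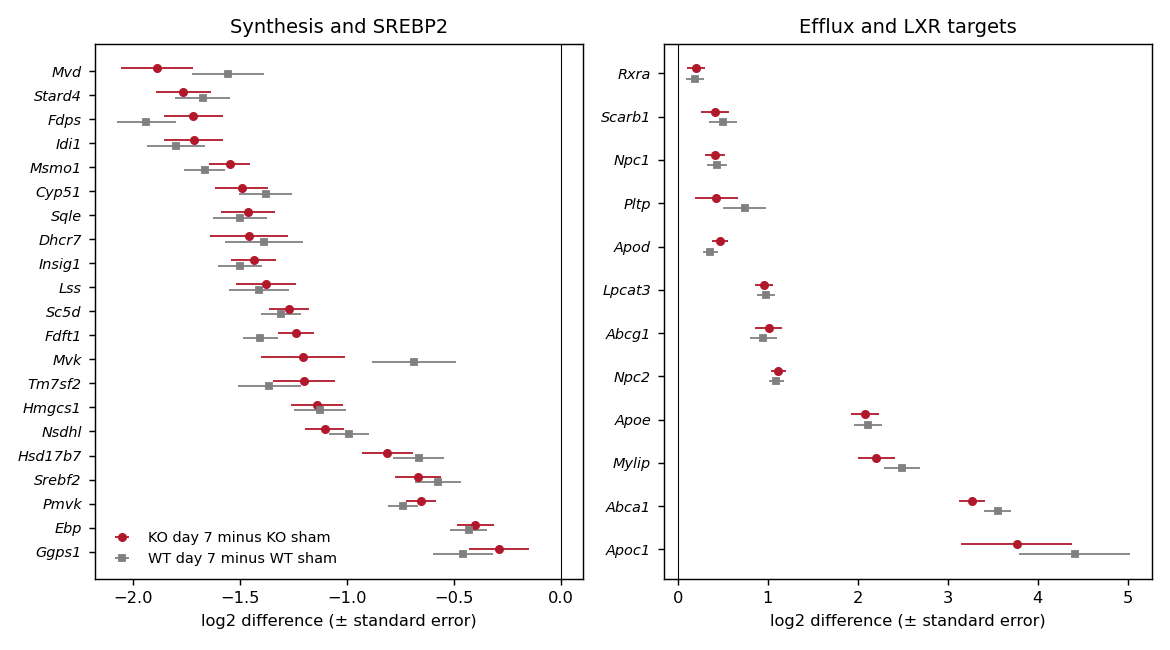
Log2 difference (± standard error from the limma fit) of each tested cholesterol synthesis gene (left panel) and efflux gene (right panel) at day 7 against sham, in KO (circles) and WT (squares). Each gene lies on the same side of 0 in both genotypes, for example Abca1 at 3.27 in KO and 3.56 in WT, and Msmo1 at −1.55 in KO and −1.67 in WT.

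Lysosomal enzymes rose as a group, with 24 of 32 tested members higher, 2 lower and a median of 1.38. Ctsd, the aspartic protease cathepsin D, had 13.74, 13.81, 13.67 and 13.76 at KO day 7, against 10.26, 10.29, 10.24 and 10.37 in KO sham. It rose 10.9-fold (difference 3.45 ± 0.13, adjusted p = 3.32e-18). Gusb, beta-glucuronidase, had 11.27, 11.17, 10.86 and 11.02 at KO day 7, against 6.79, 6.48, 6.59 and 6.79 in KO sham, a 21.3-fold rise, or a difference of 1.53 on its second probe set. Ctsz and Ctss, both cysteine cathepsins, rose 10.8-fold and 7.49-fold, and all their injured arrays lay above all sham arrays. The enzymes that fell were Ids, the iduronate sulfatase, at −0.35 (adjusted p = 0.00224), and Plbd2 at −0.32 (adjusted p = 0.0204, and 0.0622 without KO sham replicate 2).

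The lysosomal membrane and proton pump list split, with 10 of 23 tested members higher and 5 lower, against 23.5% and 31.0% of all tested genes. Its median turned sign with the scaling (0.05 as deposited and −0.07 with the arrays aligned on their medians). Grn, which encodes the lysosomal protein progranulin, had 13.68, 13.61, 13.49 and 13.70 at KO day 7, against 10.43, 10.22, 10.51 and 10.41 in KO sham. Laptm5, a lysosomal membrane protein of blood cells, rose 11.0-fold, to 13.27 ± 0.09 at KO day 7 against 9.80 ± 0.18 in KO sham, and Lamp2 rose 2.70-fold. The 5 members that fell were all subunits of the proton pump, Atp6v0a1, Atp6v1b2, Atp6v1d, Atp6v1a and Atp6v1h. Atp6v0a1 had 7.50, 7.44, 7.66 and 7.61 at KO day 7, against 8.11, 8.19, 8.07 and 8.11 in KO sham (difference −0.57 ± 0.10, adjusted p = 2.41e-05). A subunit of macrophages and osteoclasts, Atp6v0d2, did the opposite: it had 7.93, 7.80, 7.49 and 7.58 at KO day 7, while the KO sham arrays were at 2.33, 2.23, 2.23 and 2.17, a rise of 5.46 ± 0.35 (adjusted p = 2.16e-13). Pump subunits thus differed in direction within the same tissue.

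The CLEAR element TCACGTGA, which binds the lysosomal regulator TFEB, was searched on both strands of the same promoter windows. It was present in 3 of 28 lysosomal enzyme promoters (10.7%) and 4 of 20 membrane and pump promoters (20.0%), against 1.12% of all promoters. All 3 enzymes with the element rose, while of the 4 membrane and pump genes with it Clcn7 rose, Atp6v1a fell and the others did not pass. The 2 enzyme promoters shown are from RefSeq (GRCm38.p6), with the element in capitals. Ctsd is on the minus strand at chr7:142387879-142387966, and Ctsa, which encodes the protective protein cathepsin A, on the plus strand at chr2:164833720-164833772.
Ctsd: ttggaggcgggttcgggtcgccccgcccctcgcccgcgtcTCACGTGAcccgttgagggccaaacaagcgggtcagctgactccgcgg
Ctsa: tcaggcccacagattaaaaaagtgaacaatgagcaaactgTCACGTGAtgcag
Ctsa, named here for its promoter after its values were seen, had 11.69, 11.63, 11.53 and 11.56 at KO day 7, against 9.26, 9.26, 9.42 and 9.41 in KO sham, a difference of 2.26 ± 0.13 (adjusted p = 3.02e-14).

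Genes of the homeostatic microglia list and of the wider myeloid system were also higher. Bulk arrays do not tell resident microglia from infiltrating macrophages, and Sparc on this list is also on the fibroblast and matrix list. Of 18 tested homeostatic microglia genes, 16 rose and 1 fell, with a median of 2.19. Fcrls, a microglial Fc receptor-like protein, had 11.18, 11.14, 11.08 and 11.11 at KO day 7, against 6.51, 6.64, 6.48 and 6.78 in KO sham, a 23.1-fold rise. Csf1r, the receptor that microglia need for survival, had 12.86, 12.82, 12.83 and 12.90 at KO day 7, against 10.77, 10.49, 10.71 and 10.60 in KO sham. P2ry12, the purinergic receptor that surveying microglia express, was chosen after its values were seen and rose less, with 8.89, 8.83, 8.84 and 8.77 at KO day 7 against 7.98, 7.78, 7.77 and 7.62 in KO sham (difference 1.05 ± 0.32, adjusted p = 0.00784). The microglia gene that fell was Bin1, an adaptor that other brain cells also express, at −0.31 (adjusted p = 0.00223). Aif1, which encodes Iba1, rose 12.1-fold, to 10.66 ± 0.08 at KO day 7 against 7.06 ± 0.21 in KO sham.

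All 21 tested genes of the Fc receptor and myeloid signalling list rose, with a median of 3.84, and their injured arrays lay above the sham arrays in each of the 21, as they did in 26.7% of all tested genes. Fcer1g, the shared signalling chain of Fc receptors, had 11.97, 11.87, 11.69 and 11.93 at KO day 7, against 7.45, 7.33, 7.69 and 7.65 in KO sham, a 20.2-fold rise. Cyba, a subunit of the NADPH oxidase, rose 31.4-fold. Among genes of infiltrating macrophages, 11 of 18 tested members rose and none fell. Lyz2, the macrophage lysozyme, had 14.92, 14.82, 14.68 and 14.79 at KO day 7, against 9.11, 7.54, 9.59 and 9.24 in KO sham. Arg1, the arginase of wound macrophages, had 8.62, 8.88, 9.28 and 8.25 at KO day 7, against 2.38, 2.38, 2.17 and 2.38 in KO sham, at least 27.0-fold. Of 10 tested neutrophil genes 3 rose, against 23.5% of all tested genes, with a median of 0.42, or 0.10 without KO sham replicate 2. Lcn2, which astrocytes also secrete, differed by 1.86 ± 0.57 (adjusted p = 0.00726).

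All antigen presentation genes tested rose, and so did most complement genes. In the complement list 10 of 13 were higher and 1 was lower, with a median of 2.67, or 1.79 without KO sham replicate 2. C1qa, a chain of the first component of the classical pathway, had 13.57, 13.55, 13.49 and 13.51 at KO day 7, against 9.53, 9.21, 9.64 and 9.45 in KO sham. It rose 16.8-fold (difference 4.07 ± 0.12, adjusted p = 1.18e-20), and the partner chains C1qb and C1qc rose 18.2-fold and 23.0-fold. C3ar1, the receptor of the C3a fragment, had 10.52, 10.31, 10.08 and 10.41 at KO day 7, and KO sham levels were 2.79, 2.73, 2.91 and 3.09, all under background. Cfp, the alternative pathway factor properdin, was the complement gene that fell, at −0.57 (adjusted p = 0.00331). All 15 tested antigen presentation genes rose, with a median of 2.07, and 14 of them passed without KO sham replicate 2. B2m, the light chain of class I molecules, had 14.11, 13.96, 14.00 and 14.02 at KO day 7, against 11.81, 11.34, 12.10 and 11.79 in KO sham, a 4.80-fold rise. Psmb8, an immunoproteasome subunit, rose 10.9-fold.

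Cytokines and chemokines were divided, with 14 of 23 tested members higher, 2 lower and a median of 0.81. Ccl3, a macrophage chemokine, had 8.14, 7.81, 7.90 and 8.17 at KO day 7, against 2.34, 2.37, 2.34 and 2.34 in KO sham, at least 16.1-fold. Ccl2, the monocyte attractant, had 6.20, 5.61, 5.93 and 5.97 at KO day 7, against 2.93, 2.90, 4.05 and 3.91 in KO sham. Ccl7, a close relative of Ccl2, was near background in both groups, with 3.53, 5.10, 3.90 and 4.60 at KO day 7 against 3.53 on every KO sham array (adjusted p = 0.123).

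Interferon response genes rose in 18 of 19 tested members, with a median of 2.12. Stat2, which relays the type I signal, was under log2 4 on all 8 arrays and did not pass (adjusted p = 0.311). Bst2, the antiviral protein tetherin, had 9.72, 9.19, 9.51 and 9.76 at KO day 7, against 5.26, 4.82, 5.74 and 5.69 in KO sham. All 8 arrays were above background, and the rise was 18.0-fold (difference 4.17 ± 0.34, adjusted p = 2.72e-11). Irf9, a DNA-binding factor of the type I interferon response, had 7.70, 7.49, 7.68 and 7.82 at KO day 7, against 5.71, 5.22, 5.69 and 5.76 in KO sham, a 4.22-fold rise. Gbp3, an interferon-induced GTPase, rose 4.36-fold. Ifit3, an interferon-induced protein shown for its promoter after its values were seen, had 10.03, 9.45, 9.59 and 10.20 at KO day 7, against 7.39, 6.72, 7.01 and 6.84 in KO sham (difference 2.83 ± 0.42, adjusted p = 2.54e-06).

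The core of the interferon-stimulated response element, GAAA, any 2 bases and GAAA again, searched on both strands, was present in 9 of 15 promoters of this list (60.0%), against 3.99% of 27025 promoters. The 3 promoter stretches shown hold it close to the start, and capitals mark every match, including overlapping ones. They are from RefSeq (GRCm38.p6): Bst2 on the minus strand at chr8:71537547-71537642, Gbp3 on the plus strand at chr3:142559959-142560043, and Ifit3 on the plus strand at chr19:34583333-34583456.
Bst2: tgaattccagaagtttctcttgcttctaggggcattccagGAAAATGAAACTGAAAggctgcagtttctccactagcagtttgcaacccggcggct
Gbp3: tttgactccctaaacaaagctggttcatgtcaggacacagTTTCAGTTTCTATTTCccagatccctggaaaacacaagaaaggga
Ifit3: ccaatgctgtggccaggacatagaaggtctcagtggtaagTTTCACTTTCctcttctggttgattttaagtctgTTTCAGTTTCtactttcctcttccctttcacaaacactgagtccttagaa
In Gbp3 and Ifit3 the element lies on the opposite strand and reads in the printed strand as its reverse complement.

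Cell division genes were higher at day 7 than in sham cord. Of 40 tested genes of G2/M and mitosis, 32 rose and 1 fell, with a median of 1.84. The G2/M list averaged 3.70 to 4.01 on the KO sham arrays, so members under background in sham had little room to fall. Of 37 tested genes of G1/S and DNA replication, 26 rose and 1 fell, with a median of 0.73. Cdk1, the kinase that starts mitosis, had 7.31, 7.24, 7.05 and 7.17 at KO day 7, against 3.09, 3.19, 3.71 and 3.66 in KO sham. The sham levels were all under background, so the rise was at least 9.16-fold (difference 3.78 ± 0.21, adjusted p = 8.54e-15). Ccnb2, a mitotic cyclin, had 6.44, 6.48, 6.31 and 6.29 at KO day 7, against 3.22, 2.74, 3.22 and 3.29 in KO sham, at least 5.20-fold. Rrm2, which makes deoxynucleotides for replication, had 9.14, 9.02, 8.92 and 8.79 at KO day 7, against 5.71, 5.20, 6.43 and 5.99 in KO sham, an 8.77-fold rise. Mcm6, part of the replicative helicase, rose 4.13-fold. The 2 members that fell were Anln, which oligodendrocytes also express, at −0.24 (adjusted p = 0.0418, a call lost in 6 of the 8 fits with 1 array left out), and Ccne1, cyclin E1, at −0.53 (adjusted p = 1.7e-06). Among cell cycle inhibitors 8 of 12 tested members rose and 1 fell. Cdkn2c had 6.83, 7.07, 7.01 and 6.98 at KO day 7, against 4.46, 4.46, 4.48 and 4.46 in KO sham, whereas Cdkn2d differed by −0.46 ± 0.07 (adjusted p = 6.54e-06).

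The cell cycle homology region core TTTGAA, searched on both strands, was present in 25 of 35 promoters of the G2/M list (71.4%), against 20.2% of 27025 promoters. The mitotic promoters shown are from RefSeq (GRCm38.p6), with the core in capitals: Cdk1 on the minus strand at chr10:69352913-69353023 and Ccnb2 on the minus strand at chr9:70421676-70421761.
Cdk1: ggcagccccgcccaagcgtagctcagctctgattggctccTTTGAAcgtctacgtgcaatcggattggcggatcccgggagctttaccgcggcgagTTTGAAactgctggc
Ccnb2: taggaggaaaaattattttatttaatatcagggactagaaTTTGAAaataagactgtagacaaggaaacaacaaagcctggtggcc
The Cdk1 stretch holds the core more than once, and whether either copy is bound was not tested.

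Day 7 was also set against day 3 within KO cord, where 2315 genes (19.3%) were higher at day 7 and 1988 (16.6%) lower. KO day 3 arrays 3 and 4 stood apart from the other 3, with voltage-gated channel list means of 8.04 and 8.22 against 9.09 to 9.25, and with both left out 767 genes were higher and 881 lower. The statements that follow on lists give counts with all arrays and then without those 2. The G2/M list fell in 38 of 40 members, and in 38 without those arrays, while the G1/S list fell in 33 of 37, and in 28 without them. Infiltrating macrophage genes fell in 12 of 18 members and 10 without them, and reactive astrocyte genes in 19 of 30 and 13 without them. Lipid-laden phagocyte genes rose further in 12 of 24 members both ways, and lysosomal enzymes in 15 of 32 and 14 without them. Voltage-gated channel genes were higher at day 7 in 19 of 25 members with all arrays and in 1 without those 2.

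Genes of macrophages and lysosomes were among the largest rises over day 3. Mmp12, the macrophage elastase, had 6.71, 3.48, 6.79, 4.57 and 3.56 on the KO day 3 arrays and 8.68, 8.49, 8.93 and 8.90 on the KO day 7 arrays, against 2.17, 2.54, 2.73 and 2.54 in KO sham. The day 7 arrays were the highest of the 3 groups, with a difference from day 3 of 3.73 ± 0.59 (adjusted p = 2.5e-05). Atp6v0d2 had 2.40, 3.94, 5.33, 5.17 and 3.58 at KO day 3, and its day 7 level was higher by 3.62 ± 0.34 (adjusted p = 5.03e-09). Mcoln3, a lysosomal channel, was at or under 3.33 on all 5 KO day 3 arrays and had 6.36, 5.56, 5.33 and 6.12 at KO day 7. Apoe continued to climb, at 12.50, 12.60, 12.35, 12.96 and 12.49 at KO day 3, with a further difference of 1.34 ± 0.15 at day 7 (adjusted p = 1.2e-07).

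The cytokine and chemokine list had 3 of 23 members higher and 8 lower at day 7 than at day 3, and 3 higher and 4 lower without KO day 3 replicates 3 and 4. Ccl7 had 8.80, 7.23, 9.35, 9.26 and 7.71 at KO day 3, and its day 7 level was lower by 4.19 on the log2 scale (−4.19 ± 0.39, adjusted p = 5.03e-09). Ccl2 had 9.71, 8.81, 10.37, 10.31 and 9.20 at KO day 3, and differed at day 7 by −3.76 ± 0.30 (adjusted p = 3.05e-10). Arg1 had 11.94, 11.08, 12.49, 13.21 and 11.45 at KO day 3, so its day 7 level, though far above sham, was below every day 3 array. Cdk1 had 9.03, 8.75, 9.21, 9.68 and 8.79 at KO day 3 and lay between sham and day 3 at day 7. The transcript with the greatest rise over day 3 was 9630013A20Rik, to which no role is given here, with 4.73, 5.85, 4.26, 4.97 and 5.82 at KO day 3. It had 9.74, 9.77, 9.71 and 9.70 at KO day 7, against 7.15, 7.18, 7.75 and 7.35 in KO sham, so that day 3 was the lowest of the 3 groups and day 7 the highest.

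**Figure D5:**
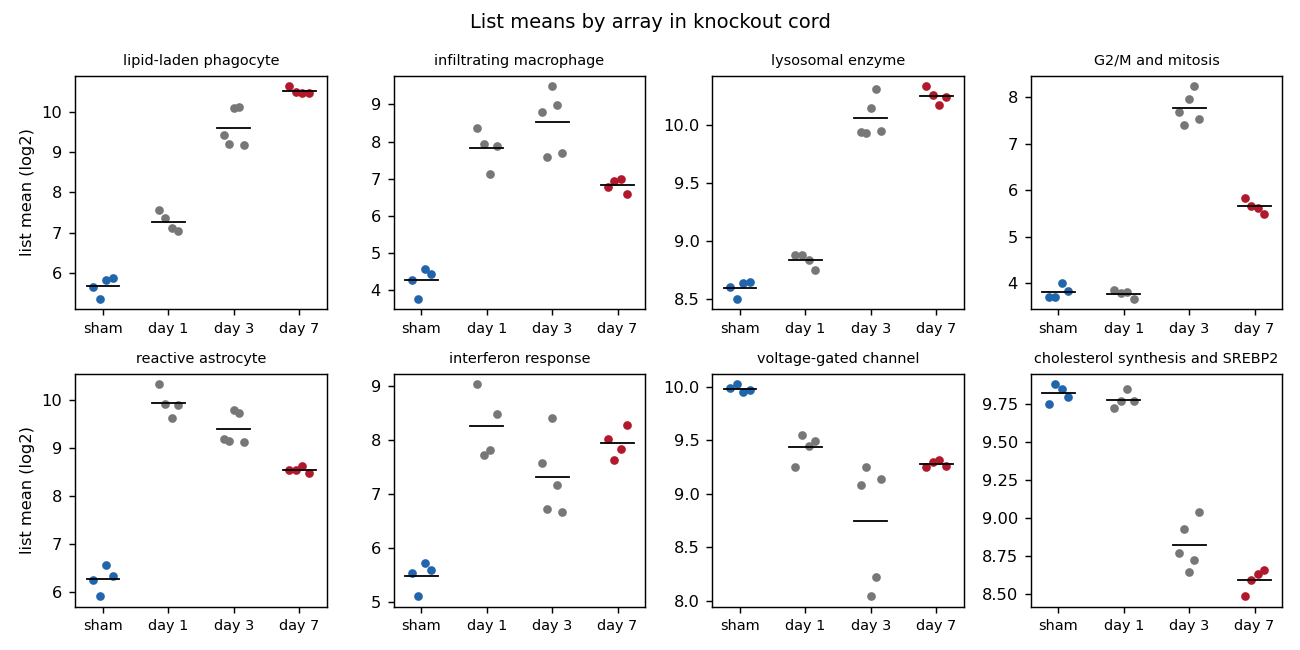
Mean log2 level of 8 gene lists on each KO array at sham, day 1, day 3 and day 7; each point is 1 array and bars are group means. The lipid-laden phagocyte list spans 10.45 to 10.63 at day 7 against 5.37 to 5.88 in sham, and the cholesterol synthesis list 8.49 to 8.66 against 9.75 to 9.88.

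Genes of reactive astrocytes were mostly higher at day 7. In the reactive astrocyte list 26 of 30 tested members rose and 1 fell, with a median of 2.26. Gfap, the astrocyte intermediate filament, had 13.42, 13.46, 13.34 and 13.39 at KO day 7, against 11.95, 11.56, 11.73 and 11.76 in KO sham, a 3.15-fold rise (difference 1.65 ± 0.14, adjusted p = 5.1e-11). Serpina3n, a secreted protease inhibitor, had 10.68, 10.73, 10.79 and 10.43 at KO day 7, against 6.44, 6.49, 6.65 and 6.34 in KO sham, an 18.1-fold rise. Timp1, an inhibitor of metalloproteinases, had 8.09, 8.09, 8.45 and 7.93 at KO day 7 and 2.27, 2.17, 2.82 and 2.40 in KO sham, all of the sham levels under background, and the rise was at least 17.6-fold. Synm, an intermediate filament protein, was the member that fell, at −0.30 (adjusted p = 0.0339, and 0.0632 without KO sham replicate 2). Homeostatic astrocyte genes were divided, with 5 of 23 tested members higher and 4 lower, or 3 higher without KO sham replicate 2. Both shares lie under those of all tested genes, 23.5% higher and 31.0% lower. Aqp4, the water channel, differed by 0.62 ± 0.19 (adjusted p = 0.00611), and Slc6a11, a GABA transporter, by −0.92 ± 0.25 (adjusted p = 0.00324).

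Oligodendrocyte genes changed little in the median, though single members fell more. Of 28 tested myelin and oligodendrocyte genes, 14 fell and 1 rose, with a median of −0.25. With 1 array left out 9 to 13 fell, and 31.0% of all tested genes fell with all arrays. Mobp, a protein of compact myelin, had 14.63, 14.73, 14.73 and 14.65 at KO day 7, against 14.98, 15.10, 14.99 and 14.98 in KO sham. The injured arrays all lay under the sham arrays, by 0.33 on average, a 1.25-fold fall. Opalin, an oligodendrocyte membrane protein, had 9.90, 9.88, 10.08 and 9.81 at KO day 7, against 11.00, 11.08, 11.00 and 10.96 in KO sham, a 2.14-fold fall. Mbp differed little, at 15.62 ± 0.02 at KO day 7 against 15.74 ± 0.03 in KO sham (difference −0.12 ± 0.04, adjusted p = 0.0151), and the call was lost with a second probe set (adjusted p = 0.0962) and after repeated quantile normalisation (adjusted p = 0.266). Mobp and Mbp lie near the highest signal of the series, 15.90, and whether this limits their differences was not tested. The list member that rose was Nfasc, an adhesion molecule of the node and of glia, at 0.53 ± 0.10. Its second probe set gave 0.06 (adjusted p = 0.592). Oligodendrocyte precursor genes leaned the other way, with 7 of 14 tested members higher and 2 lower. Cspg4, the NG2 proteoglycan, rose 2.44-fold, to 7.50 ± 0.08 at KO day 7 against 6.21 ± 0.17 in KO sham. Bmp4 had 6.26, 6.66, 6.63 and 6.91 at KO day 7, against 4.75, 4.58, 4.78 and 4.75 in KO sham.

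Most genes of synaptic and channel lists fell, by modest amounts. Among synaptic vesicle and neuronal cytoskeleton genes 24 of 27 tested members fell and 1 rose, with a median of −0.63. Snap25, a fusion protein of synaptic vesicles, had 14.75, 14.69, 14.70 and 14.81 at KO day 7, against 15.27, 15.25, 15.27 and 15.23 in KO sham, a 1.43-fold fall (difference −0.52 ± 0.15, adjusted p = 0.00433, and −0.38 with adjusted p = 0.0757 for its second probe set). Vamp1, which acts with Snap25, fell 2.05-fold, and Syt2, a calcium sensor of fast synapses, fell 2.32-fold. The gene that rose was Gap43, a growth cone protein, with 10.37, 10.48, 10.39 and 10.49 at KO day 7 against 10.13, 10.04, 9.98 and 10.03 in KO sham (difference 0.39 ± 0.11, adjusted p = 0.00283). Its injured arrays were above all its sham arrays.

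In the inhibitory transmission list 14 of 20 tested members fell and none rose, with a median of −0.72. Pvalb, a calcium buffer of fast-spiking neurons and of fast muscle that the muscle list also holds, had 9.70, 9.73, 9.62 and 9.77 at KO day 7, against 10.95, 11.35, 11.11 and 11.47 in KO sham, a 2.85-fold fall. Its difference was −1.51, or −0.85 with the muscle list mean as a covariate (adjusted p = 0.00151). Slc32a1, the vesicular transporter of GABA and glycine, had 9.67, 9.58, 9.58 and 9.57 at KO day 7, against 10.48, 10.62, 10.58 and 10.53 in KO sham. Glutamate receptor and transmission genes fell in 11 of 17 members, and Slc17a6, the vesicular glutamate transporter of the cord, averaged 11.73 ± 0.03 at KO day 7 against 12.52 ± 0.09 in KO sham. Voltage-gated channel genes fell in 18 of 25 members, with a median of −0.69, and Scn4b, a sodium channel subunit, had 9.39, 9.38, 9.38 and 9.35 at KO day 7, against 10.58, 10.85, 10.53 and 10.65 in KO sham. In the motor neuron list 6 of 8 tested members fell and 1 rose. Esrrg, a nuclear receptor of a class of motor neurons, differed by −1.05 ± 0.25 (adjusted p = 0.000765), and Rreb1 was the gene that rose, at 0.63 ± 0.13.

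Dorsal horn neuropeptide genes were more mixed, with 3 of 16 tested members higher and 4 lower, against 23.5% and 31.0% of all tested genes. With any 1 of the 8 arrays left out, 2 were higher and 3 to 5 lower. Adcyap1, which encodes the peptide PACAP, had 8.08, 8.15, 8.10 and 8.31 at KO day 7, against 6.79, 6.35, 6.47 and 6.37 in KO sham, a 3.17-fold rise. The stress and regeneration genes Atf3 and Sprr1a, which injured neurons are known to turn on, were higher as well: Sprr1a had 8.84, 8.23, 8.54 and 9.54 at KO day 7, against 2.59, 3.14, 2.59 and 2.70 in KO sham, at least 27.6-fold. Atf3 had 7.54, 7.36, 7.38 and 7.45 at KO day 7, with all KO sham arrays at or under 3.69. They belong to the immediate early and stress list, in which 12 of 19 tested members rose and 1 fell.

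Of 15 tested neurotrophin and GDNF signalling genes, 3 rose (1 to 3 with 1 array left out) and 7 fell, with a median of −0.30. Of all tested genes 23.5% rose and 31.0% fell. Bdnf, the ligand of trkB, had 6.61, 6.62, 6.63 and 6.77 at KO day 7, against 6.61, 7.07, 6.88 and 6.96 in KO sham, which overlap (difference −0.22 ± 0.29, adjusted p = 0.535). Ngfr, the p75 receptor, had 6.52, 5.21, 6.68 and 5.61 at KO day 7, against 5.08, 5.02, 5.21 and 5.21 in KO sham, and did not pass (adjusted p = 0.0808). Frs3, a docking protein of trk receptors, fell 1.67-fold, to 6.38 ± 0.07 at KO day 7 against 7.12 ± 0.18 in KO sham. Cntfr, the receptor of ciliary neurotrophic factor, differed by −0.66 ± 0.13 (adjusted p = 0.000138).

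Matrix genes rose broadly, and KO sham replicate 2 was low for several of them. In the fibroblast and matrix list 24 of 28 tested members rose and none fell, with a median of 2.27, or 1.85 without replicate 2. Fn1, fibronectin, had 11.53, 11.52, 11.68 and 11.76 at KO day 7, against 9.15, 6.74, 9.25 and 8.70 in KO sham. Its difference was 3.16 ± 0.51 with all arrays and 2.59 without replicate 2. Col3a1, a fibrillar collagen, had 13.06, 12.89, 13.51 and 13.26 at KO day 7, against 10.11, 6.76, 10.65 and 10.37 in KO sham, a difference of 3.71 with all arrays and 2.81 without replicate 2. Thbs2, a thrombospondin, did not depend on that array, with 8.66, 8.57, 8.60 and 8.48 at KO day 7 against 6.15, 5.81, 6.24 and 5.80 in KO sham, a 5.97-fold rise. Of 11 tested meningeal genes, 8 rose with all arrays and 4 without replicate 2. Ogn, a small proteoglycan of the meninges, had 10.32, 10.56, 10.92 and 10.54 at KO day 7, against 10.07, 3.97, 10.23 and 10.50 in KO sham, so the sham group held 1 low array, and the difference was 1.89 (adjusted p = 0.0977) with it and 0.31 without it.

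Proteoglycans, tenascins and metalloproteinases of the scar were mostly higher. In the proteoglycan and tenascin list 10 of 17 tested members rose and 3 fell. Vcan, versican, had 9.99, 9.93, 10.13 and 10.04 at KO day 7, against 8.35, 8.48, 8.50 and 8.48 in KO sham, a 2.96-fold rise. Tnc, tenascin C, had 7.74, 7.59, 7.81 and 7.69 at KO day 7, against 4.87, 4.13, 5.28 and 5.35 in KO sham, though its second probe set differed by 0.47 and did not pass (adjusted p = 0.16). Cd44, the hyaluronan receptor, rose 4.95-fold. Of 22 tested metalloproteinase and inhibitor genes 13 rose and 1 fell, and Adam8, a protease of leukocytes, had 8.33, 8.09, 8.02 and 8.31 at KO day 7, with all KO sham arrays at or under 3.67.

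Endothelial genes showed no common direction, with 6 of 23 tested members higher and 3 lower, against 23.5% and 31.0% of all tested genes. Icam1, a leukocyte adhesion molecule, had 6.14, 6.45, 6.60 and 6.46 at KO day 7, against 3.26, 2.27, 3.31 and 3.56 in KO sham, at least 5.33-fold, and Vcam1 differed by 0.88 ± 0.15 (adjusted p = 1.3e-05). Vegfa, the vascular growth factor that glia and neurons also make, fell 2.34-fold, to 7.32 ± 0.12 at KO day 7 against 8.55 ± 0.13 in KO sham. Cldn5, a tight junction protein, named after its values were seen, did not pass (difference −0.64 ± 0.29, adjusted p = 0.0657).

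Oxidative phosphorylation genes fell together by small amounts. Of 33 tested members 32 fell and none rose, with a median of −0.40 against −0.06 for all genes, and 31 fell without KO sham replicate 2 as well as with the muscle mean as a covariate. The list mean was 12.24 to 12.27 on the KO day 7 arrays, against 12.60 to 12.68 on the KO sham arrays. Ndufa10, a complex I subunit, had 11.85, 11.82, 11.82 and 11.90 at KO day 7, against 12.33, 12.49, 12.39 and 12.42 in KO sham, a 1.47-fold fall. Atp5b, the catalytic subunit of ATP synthase, had 13.39, 13.35, 13.34 and 13.31 at KO day 7, against 13.76, 13.77, 13.77 and 13.78 in KO sham. The member that did not pass was Sdhc of complex II (difference −0.04, adjusted p = 0.499). In glycolysis 4 of 17 tested members rose and 10 fell, against 23.5% and 31.0% of all tested genes. Hk2, the hexokinase of activated cells, had 8.24, 8.04, 8.07 and 8.19 at KO day 7, against 5.27, 5.45, 5.54 and 6.37 in KO sham, a 5.58-fold rise, while Slc2a3, the neuronal glucose transporter, fell 1.61-fold.

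Of 18 tested apoptosis regulators 13 rose and none fell, with a median of 1.45. Casp8, an initiator caspase, had 7.12, 7.00, 7.17 and 7.02 at KO day 7, against 4.71, 4.19, 4.71 and 4.53 in KO sham, a 5.83-fold rise. Casp1, the inflammasome caspase, had 8.06, 7.62, 7.84 and 7.91 at KO day 7, against 5.43, 5.02, 5.48 and 5.69 in KO sham. Tnfrsf1a, a TNF receptor, rose 4.79-fold.

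The 15 largest falls that the naming rule picked were all muscle genes. In the skeletal muscle list 15 of 21 tested members fell, with a median of −3.70, and 11 fell without KO sham replicate 2, 8 without KO day 7 replicate 2 and 5 without KO sham replicate 4. In WT cord 2 members rose and 1 fell, with a median of 0.22. Myh4, a fast myosin heavy chain, had 2.64, 2.64, 3.86 and 4.07 at KO day 7, against 8.22, 10.34, 9.85 and 10.42 in KO sham, a difference of −6.41 ± 1.87 (adjusted p = 0.00507, and −1.43 with adjusted p = 0.222 for its second probe set). With the muscle list mean of each array as a covariate, which the muscle genes themselves make up, 4 members were lower and 3 higher, with a median of −0.08. Among falls outside muscle, chosen after their values were seen, Fam227b had 5.72, 6.37, 6.37 and 5.76 at KO day 7, against 8.41, 8.73, 8.79 and 8.70 in KO sham (difference −2.61 ± 0.32, adjusted p = 8.75e-08). Hsd11b1, which regenerates active glucocorticoid, had 7.87, 7.71, 7.89 and 8.03 at KO day 7, against 9.94, 9.90, 9.77 and 9.86 in KO sham (difference −1.99 ± 0.21, adjusted p = 6.21e-09).

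The same comparison in WT cord shares no arrays with the KO one. In WT, 3097 genes (25.8%) were higher and 3991 (33.3%) lower at day 7 than in sham cord. The 2588 genes that rose in both genotypes made up 91.6% of the KO rises and 83.6% of the WT rises, and the 3238 that fell in both were 87.1% of the KO falls and 81.1% of the WT falls. Another 2 genes passed in opposite directions. The difference between genotypes in the day 7 response was tested directly, and it passed for 1 of 11993 genes (0.00834%), with 395 genes at an unadjusted p under 0.05. The count depends on how the spread is estimated, since it was 57 when only the 4 groups compared entered the fit and 56 with array weights. That gene was Cnmd, which encodes the cartilage protein chondromodulin. It had 3.55, 4.18, 3.72 and 3.59 at KO day 7 and 4.35, 3.84, 5.06 and 5.19 in KO sham, against 5.41, 4.52, 4.66 and 4.67 at WT day 7 and 3.55, 3.96, 3.68 and 3.74 in WT sham. Most of these levels lie close to background, and the KO response was lower than the WT response by 1.93 on the log2 scale (−1.93 ± 0.31, adjusted p = 0.00935). Without KO sham replicate 2, Egr2, a transcription factor of Schwann cells and early response, passed as well (−2.90, adjusted p = 6.98e-05).

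No member of the gene lists had a called genotype difference with all arrays, and without KO sham replicate 2 only Egr2 did, a member of the immediate early and Schwann cell lists. The medians of the lipid-laden phagocyte list were 5.40 in KO and 5.55 in WT, those of cholesterol synthesis −1.27 in KO and −1.38 in WT, and those of interferon response 2.12 in KO and 1.54 in WT. The skeletal muscle medians lay far apart, at −3.70 in KO and 0.22 in WT. A p above the threshold does not show that the genotypes respond alike. Set against each other directly at day 7, KO and WT cord differed in 4 genes (0.0334%). Cd59a, an inhibitor of the complement membrane attack complex, was higher in KO by 0.91 ± 0.11 at day 7 and by 0.87 ± 0.11 in sham cord, and Dapk1, a death-associated kinase, was higher in KO at day 7 by 1.00 ± 0.14 (adjusted p = 0.000715). Mcoln3 was lower in KO by 0.91 on the log2 scale (−0.91 ± 0.17, adjusted p = 0.0464), and Capn6, a calpain relative near background, by 0.71 (−0.71 ± 0.14, adjusted p = 0.0492). The count of 4 genes used only the brightest probe set of each gene, and so misses the targeted transcript. Ntrk2 probe set A, left out of that count, averaged 4.18 ± 0.27 in KO and 10.64 ± 0.16 in WT cord at day 7.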

How the data were processed

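Each of 34 spinal cord RNA samples was hybridised to 1 Affymetrix array. The submitters' processing notes name GCRMA for the deposited log2 values of each probe set, with a version that is not given in the sources used here. GCRMA adjusts background by probe GC content, quantile-normalises and summarises by median polish, which can compress differences near the floor. Precision is limited by the number of arrays. The values were used as deposited, and no array equalled another. Of 45101 probe sets, 34945 had 1 gene symbol in the platform annotation, 932 several, 9160 none and 64 were controls. For 34741, Entrez IDs linked the symbol to a GRCm38.p6 gene table.

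Samples were grouped by the labels. A mean for each of the 8 groups was fitted to all 34 arrays by limma 3.58.1 (lmFit, eBayes; R 4.3.3). Benjamini-Hochberg adjustment ran over 11993 genes, with a threshold of 0.05. The fit was tested on simulated data. The members and the 51 gene lists were chosen with earlier results of these data known, and 894 of their 1100 entries were tested. The rule for named genes takes the 15 largest rises and falls with no overlap that pass without KO sham replicate 2, up to 4 members per list with the smallest p, the 10 genes that replicate 2 moves most, the 8 largest rises and falls over day 3, the leading genotype differences and 14 fixed genes, in all 240. Other genes are said to be chosen after their values were seen, and members of a list named because they were the exceptions in its count were likewise chosen afterwards. One fixed gene is not reported here.

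Alternatives were other filters (none or log2 6), probe set choices, a floor, scalings, eBayes settings and array weights. Others were fewer groups, a replicate block, Hox (caudal minus rostral list mean) and skeletal muscle covariates and leaving out each array. The muscle covariate and the fit without KO day 3 replicates 3 and 4 were added after seeing the data. The main fit did not pair samples by replicate number.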

Additional observations from a re-analysis of the deposited data

Results flagged for a closer look

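With 4 arrays in a group, an array was set apart where its gap to the nearest other array exceeded Dixon's limit for the share of the group's range. This held in 48 of 582 groups of values for the named genes and list means (8.25%), and chance sets apart about 5.0% of groups. KO sham replicate 2 was the lowest array in 18 of them and the highest in 2, and the cause was not tested. The named genes include those picked because leaving out replicate 2 moved them most, among them Ogn, Prg4, Igfbp6, Cdh1, Mfap5, Col3a1 and Serping1. That choice favours such calls, so neither these counts nor the 8.25% is an independent measure of how far replicate 2 stands apart.

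In KO sham, replicate 2 was lowest for the connective tissue genes Ogn (3.97, others 10.07 to 10.50), Prg4 (2.62), Igfbp6 (3.15), Dcn (7.97), Mgp (7.68), Mfap5 (3.25), and Col3a1 (6.76), and for the meningeal list mean (6.31). It was also lowest for Serping1 (4.81), Cdh1 (2.81), Egr2 (3.78), Irf9 (5.22), Ccnb2 (2.74), Bmp4 (4.58), Casp12 (5.20) and Aif1 (6.74), and for the means of the complement (6.51) and antigen presentation (5.31) lists. It was highest for Mobp (15.10) and, under background, for Ccl3 (2.37).

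Other KO sham arrays stood apart as well. Replicate 4 was high for Cd36 (5.49) and low for Mmp19 (2.39). Replicate 3 was high for Msr1 (3.39), Mmp8 (3.15), Cenpa (4.35), Cdkn2c (4.48), Slc11a1 (4.14) and Ccnd1 (9.54), and low for Arg1 (2.17) and Cartpt (8.77). Replicate 1 was low for Vcan (8.35) and high for Mcoln3 (2.30). The other KO sham arrays were tied for Msr1, Arg1, Cdkn2c, Slc11a1, Mcoln3 and, in the calls of replicate 2, Ccl3. There any gap at all was set apart, so the chance share above does not hold for these calls.

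Among KO day 7 arrays, replicate 1 was high for Msr1 (9.27), Tgfbr1 (11.41), Csf3r (7.86) and Slc32a1 (9.67), and low for the cytokine and chemokine list mean (6.25). Replicate 2 was low for Actn3 (3.49), Gbp3 (8.26) and Slc16a1 (12.66), and high for Fabp4 (9.46) and Hspb7 (2.63). Replicate 3 was high for Hmox1 (8.62) and low for Hoxc9 (7.00). Replicate 4 was high for Apobec2 (3.12), Vcam1 (10.08) and Bdnf (6.77), and low for Sgk1 (12.71). Several of these gaps are under 0.1 log2 units, as for Slc16a1, and so are small beside the day 7 differences.

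The day 7 response of Cnmd differed between the genotypes by −1.93 on the log2 scale, KO minus WT, in the direct test of that difference.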

How the results depend on the processing

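The counts of genes higher and lower at KO day 7 than in KO sham stayed within 1.5 times their values under all alternatives run. Leaving out 1 array at a time gave 2601 to 2699 higher genes, 3250 to 3537 lower, 1089 to 1175 at least 2-fold higher and 216 to 279 at least 2-fold lower. The 247 genes at least 2-fold lower became 437 with arrays aligned on their medians and 425 with the muscle covariate. For day 7 against day 3, the 2315 higher genes became 938 with only the groups compared, 1284 with the Hox covariate, 1378 with the muscle covariate and 767 without KO day 3 replicates 3 and 4 together. Leaving out 1 array gave 1414 (KO day 3 replicate 3) to 2771, with 1507 without replicate 4. The 1988 lower genes became 1188 with only the groups compared and 881 without those 2 arrays, and 1484 to 2226 with 1 array left out. The single genotype difference became 4 genes with no filter, 0 with a filter at log2 6, 2 with values under 4 set to 4, 56 with array weights, 57 with only the groups compared and 3 with the Hox covariate, and 1 to 2 with 1 array left out, 2 without KO sham replicate 2 or WT day 7 replicate 2. The cause of these shifts was not tested. Named genes that changed sign were Mb (0.32) and Hspb7 (1.59) with the muscle covariate, Eif2s3y (−0.26) on its second probe set and Pmp2 (−0.27) without KO sham replicate 2, and none of these values passed. Of 2142 counts for lists, 152 moved, and of 1071 list medians, 125. Signals near background, where folds are bounds, limit what these arrays can show.

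With the replicate number as a block, 2817 genes were higher and 3715 lower, and no named call was lost. Same-numbered injured and sham arrays had deviations correlated at −0.003, 0.004, 0.043 and 0.050. Only KO day 7 replicate 4 correlated best with its own number. These few values cannot tell whether same-numbered arrays were handled together.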

Other observations

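Lists of stress, iron and hormone genes were counted at KO day 7 as well. Over all tested genes, 23.5% were higher and 31.0% lower. In the iron and heme list 7 of 15 tested members rose and 2 fell. Hmox1, heme oxygenase, had 7.88, 7.73, 8.62 and 7.83 at KO day 7, against 2.89, 2.83, 3.29 and 3.78 in KO sham, at least 16.2-fold, and lay 3.59 log2 units lower than at KO day 3 (−3.59, limma adjusted p = 3.76e-09). Slc11a1, the iron exporter of phagosomes, averaged 8.31 ± 0.09 at KO day 7, against 3.90 ± 0.16 in KO sham. The metallothioneins Mt1 and Mt2, which bind zinc and copper, rose 1.87-fold and 2.28-fold, but a second Mt1 probe set did not pass (adjusted p = 0.117). In the heat shock and unfolded protein list 6 of 16 tested members rose and 4 fell. Hspb1, the small heat shock protein that reactive glia raise, had 11.39, 11.48, 11.23 and 11.28 at KO day 7, against 8.78, 8.82, 8.84 and 9.05 in KO sham, a 5.55-fold rise, while Dnajb1, a cochaperone of Hsp70, differed by −0.38 ± 0.07. Of 12 glucocorticoid-responsive genes 7 rose and none fell. Sgk1, a kinase that glucocorticoid induces, had 13.25, 13.31, 13.23 and 12.71 at KO day 7, against 12.22, 10.54, 11.33 and 11.91 in KO sham, in contrast to the fall of Hsd11b1. In the circadian clock list 2 of 12 tested members rose and 3 fell, both smaller shares than over all tested genes. The 2 rises became 1 in 7 of the 8 fits with 1 array left out. Arntl, the clock activator Bmal1, differed by −0.67 ± 0.12 (adjusted p = 2.7e-05).

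Smaller lists were counted for cells and tissue that a cord sample can hold. Over all tested genes 23.5% were higher and 31.0% lower, and several of these counts lie near those shares. Whether any list departs from them was not tested. Schwann cell and nerve root genes rose in 3 of 10 tested members and fell in 1. Ependymal genes rose in 3 of 9 and fell in 1 (Ak7), a call lost in 5 of those 8 fits, among them the one without KO sham replicate 2. The 4 tested sensory ganglion genes gave 1 rise (0 without KO day 7 replicate 4 or KO sham replicate 1) and 2 falls, the 4 adipocyte and bone marrow genes 1 rise (Fabp4, difference 3.71), the 3 red blood cell genes 1 fall (Bpgm, −0.25, lost without KO day 7 replicate 4 or KO sham replicate 3), the 3 sex-linked genes 1 rise (Eif2s3y, 0.56), and the 1 tested lymphocyte gene, Ighm, fell by 1.00 (adjusted p = 0.0138). Of 11 tested rostral Hox genes 4 fell (2 to 3 with 1 array left out), and of 10 tested caudal Hox genes 5 fell, with no rise in either list. Hoxa9 had 11.11, 11.08, 11.09 and 11.00 at KO day 7, against 11.61, 11.63, 11.42 and 11.54 in KO sham. With the caudal minus the rostral Hox list mean of each array as a covariate, 2783 genes were higher at KO day 7 than in KO sham and 3673 lower. That covariate does not hold a fall common to both lists.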
